A study of Caenorhabditis elegans with 2 samples.

Results

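Aminoacyl-tRNA synthetase genes were taken as the protein-coding genes of Caenorhabditis elegans whose name is 1 letter followed by ars- and a number, which gave 32 of 19973 genes over the 6 nuclear chromosomes. Binding of HSF-1, the conserved activator of heat shock genes, was measured by chromatin immunoprecipitation and sequencing (ChIP-seq) in 2 biological replicates of 1 group. These were whole young adults of 63 h of strain RW12254, grown from larvae that were synchronised by starvation at the first larval stage after bleaching. In this strain the hsf-1 gene on chromosome I was edited with CRISPR to carry the insertion TY1::EGFP::3xFLAG, and an antibody to green fluorescent protein was used to pull down the fusion. The labels name no heat treatment and no second group, so all values describe HSF-1 in worms of this 1 strain, and no difference between conditions could be tested. Pooled animals were used as whole organisms, so a peak present in few cells and a weak peak in all cells cannot be told apart.

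Each aminoacyl-tRNA synthetase joins 1 amino acid to its transfer RNA, the step that sets the genetic code and feeds the ribosome. The enzymes fall into a pair of unrelated structural classes, I and II, and most animals carry one set of genes for the cytosol and another for the mitochondria, while a few genes serve both. HSF proteins bind heat shock elements, runs of alternating GAA and TTC units with 2 bases between units. In mammals, many cytosolic synthetase genes are known targets of ATF4, a factor of the amino acid response, and in worm larvae HSF-1 has been described together with E2F, a factor of the cell cycle.

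Of the 32 genes, 17 were placed among the cytosolic enzymes, 4 among enzymes that serve both compartments (gars-1, hars-1, kars-1 and tars-1) and 11 among the mitochondrial enzymes. The compartment came from the RefSeq product name for 13 genes and from the gene name for 19. One placement is uncertain: vars-1 was counted as cytosolic by its number, while another valyl enzyme gene, glp-4, lies outside the naming rule. A gene was called bound when the summit of a peak in the authors' pooled thresholded list fell between 1000 bp upstream and 200 bp downstream of any transcript start annotated for it.

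HSF-1 was called at 5 synthetase genes. Sequences at 3 of their summits are shown because these 3 peaks recurred in both replicate lists. They run 5′ to 3′ along the strand of the synthetase gene on ce11, hold no annotated exon, and were read from the RefSeq genome. Capitals mark the fixed bases of the pattern TTCNNGAA and, at fars-3, of an element with 8 of 9 fixed bases.
vars-1, chrV:8031215-8031325, plus strand: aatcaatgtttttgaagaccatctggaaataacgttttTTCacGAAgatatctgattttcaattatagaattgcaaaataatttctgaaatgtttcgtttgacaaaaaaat
fars-3, chrII:8464513-8464657, plus strand: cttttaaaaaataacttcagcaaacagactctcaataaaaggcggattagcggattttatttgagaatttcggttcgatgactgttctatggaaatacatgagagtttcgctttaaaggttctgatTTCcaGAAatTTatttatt
ears-2, chrIV:390469-390559, minus strand: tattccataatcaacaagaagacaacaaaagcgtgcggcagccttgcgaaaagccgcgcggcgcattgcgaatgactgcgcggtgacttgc
The vars-1 and fars-3 stretches each lie between a synthetase gene and the end of the gene before it on the same strand. The ears-2 stretch is the whole interval between ears-2 and the divergent gene uncp-18, and none of the patterns searched was found in it.

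The 5 bound genes were vars-1, fars-3, ears-2, aars-2 and yars-2, or 15.6% of the 32 (95% Wilson interval 6.86 to 31.8), beside 7.63% of all protein-coding genes. The interval covers the counting of genes only, and it includes the share over all genes. Peaks at aars-2 and yars-2 were in neither replicate's own thresholded list. In the list of replicate 1 there were 3 bound synthetase genes (9.38%, beside 3.83% of all genes), and in that of replicate 2 there were 3 as well (9.38%, beside 5.29%). They were vars-1, fars-3 and ears-2 in both. The conservative list of both replicates held 4, the 5 without yars-2 (12.5%, beside 7.11% of all genes). The depth of the libraries is unknown, so a gene without a call is one at which no peak was called at this depth.

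**Figure D1:**
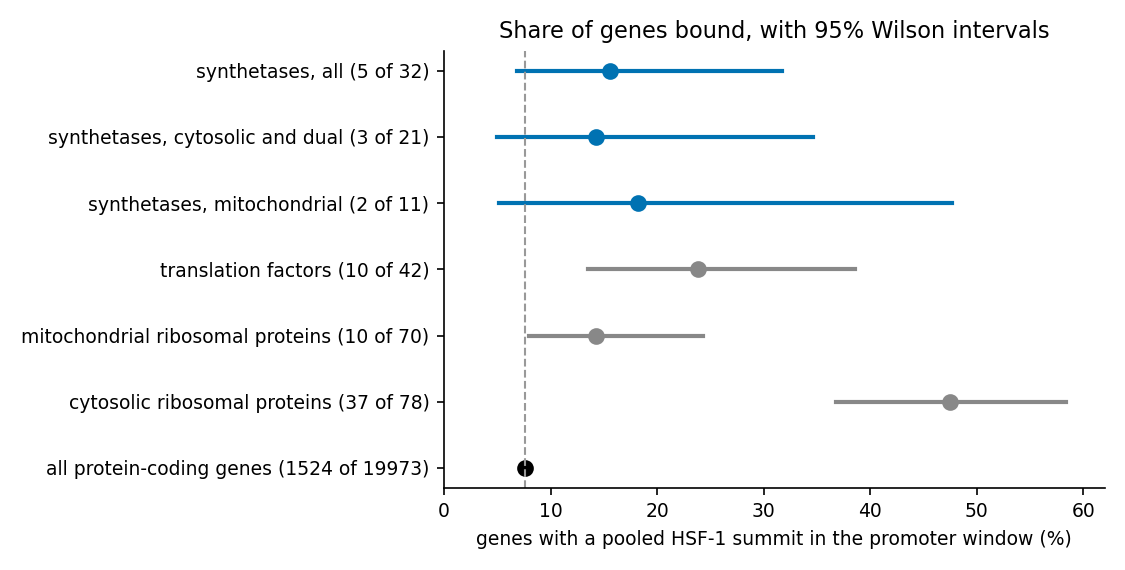
Share of genes with a pooled HSF-1 summit in the promoter window (x axis, percent), with 95% Wilson intervals as bars and the number bound of the number of genes in each label. The dashed line is the 7.63% of all protein-coding genes. The intervals of the synthetases and of both compartments span that line, and cytosolic ribosomal protein genes lie farthest from it at 47.4%.

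Other genes of translation are set beside the synthetases as background. Among 42 genes named as translation factors, 10 were bound (23.8%), a list that by its naming rule also holds eftu-2, a spliceosomal GTPase. Of 70 mitochondrial ribosomal protein genes 10 were bound (14.3%), and of 78 cytosolic ribosomal protein genes 37 (47.4%). Over their bound genes, the median signal of the strongest pooled peak was 114.5 for the synthetases, 99.6 for translation factors, 78.5 for mitochondrial ribosomal proteins and 136.0 for cytosolic ribosomal proteins, against 107.8 for all bound genes. Signal is the authors' value per peak, in units of the peak caller, and is not scaled between lists. No test over genes was made of these shares.

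Among cytosolic enzymes, the strongest peak lay at vars-1, which encodes a valyl-tRNA synthetase. Its pooled signal was 184.5, and replicate 1 gave 78.6 and replicate 2 gave 101.7. This was rank 533 of the 2935 pooled peaks, and 361 protein-coding genes had a stronger best peak. The peak (chrV:8031093-8031396) was intergenic, with its summit 166 bp upstream of the annotated start of vars-1. Both replicates placed the summit within 7 bp of the pooled one. The summit lay 31 bp past the end of oma-2, a gene for a zinc finger protein of oocyte maturation on the same strand, and the peak reached into oma-2. Only 197 bp separate the 2 genes. A weaker summit near the start was called in the conservative list, 33 bp downstream (29.3), and in replicate 1, 40 bp downstream (26.2). Replicate 2 alone had another summit 942 bp upstream (54.9).

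At fars-3, which encodes the beta subunit of phenylalanyl-tRNA synthetase, the pooled signal was 180.8, with 65.2 in replicate 1 and 117.5 in replicate 2. Its rank was 549, next to that of vars-1, and the order of the pair turned between replicates, with vars-1 higher in replicate 1 and fars-3 higher in replicate 2. The peak (chrII:8464491-8464611) was intergenic, 271 bp upstream of fars-3 and 65 bp past the end of zyg-9, a gene for a microtubule regulator on the same strand. Replicate 2 placed its summit on the same base and replicate 1 placed it 44 bp away. Replicate 1 also had a weaker summit nearer to the start (12.6). The gene for the alpha subunit of the same enzyme, fars-1, was not bound, and its strongest ranked peak had a pooled signal of 37.9, with 16.1 in replicate 1 and 21.2 in replicate 2.

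The third bound cytosolic gene was aars-2, the cytosolic alanyl-tRNA synthetase by its RefSeq product name. Its peak (chrI:3982797-3983100, intergenic, 234 bp upstream) reached a pooled signal of 79.7, at rank 1912. The matching ranked peaks had signals of 43.1 in replicate 1 and 36.7 in replicate 2. The irreproducible discovery rate (IDR), a measure of how far a peak keeps its rank between 2 peak sets, was 0.0111 in replicate 1 and 0.46 in replicate 2. Both exceed the 0.01 that every thresholded peak met, so the call rests on the lists made from both replicates. There the IDR was 0.00404 in the pooled analysis and 0.00503 in the conservative one.

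Both bound mitochondrial genes carried weaker peaks than vars-1 and fars-3. Against the third cytosolic gene, aars-2 (79.7), ears-2 was higher and yars-2 (79.0) nearly the same. At ears-2, the mitochondrial glutamyl-tRNA synthetase, the pooled signal was 114.5, with 47.4 in replicate 1 and 61.2 in replicate 2. In each replicate this was below the values of vars-1 and fars-3 and above that of aars-2 (43.1 in replicate 1 and 36.7 in replicate 2). The peak (chrIV:390368-390671, rank 1040) was intergenic, 52 bp upstream of ears-2 and 40 bp upstream of uncp-18, whose start lies 92 bp away on the other strand. Its summits in the replicates lay within 5 bp of the pooled one. The summit is nearer to uncp-18, so a rule that gives each summit to its nearest gene takes this call from ears-2.

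At yars-2, the mitochondrial tyrosyl-tRNA synthetase by its gene name, the pooled signal was 79.0 at rank 1944. The matching ranked peaks had 43.0 in replicate 1 (IDR 0.016) and 29.9 in replicate 2 (IDR 0.322). The peak (chrIV:4712450-4712753) had its summit in the 5′ untranslated region, 22 bp downstream of the nearest of 5 annotated starts. Its summits in the replicates lay 36 bp and 49 bp from the pooled one, farther than at ears-2. It was absent from the conservative list, where the ranked peak had an IDR of 0.0228. The upstream gene on the same strand is miro-1, a gene for a mitochondrial GTPase, which ends 201 bp from the start of yars-2.

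**Figure D2:**
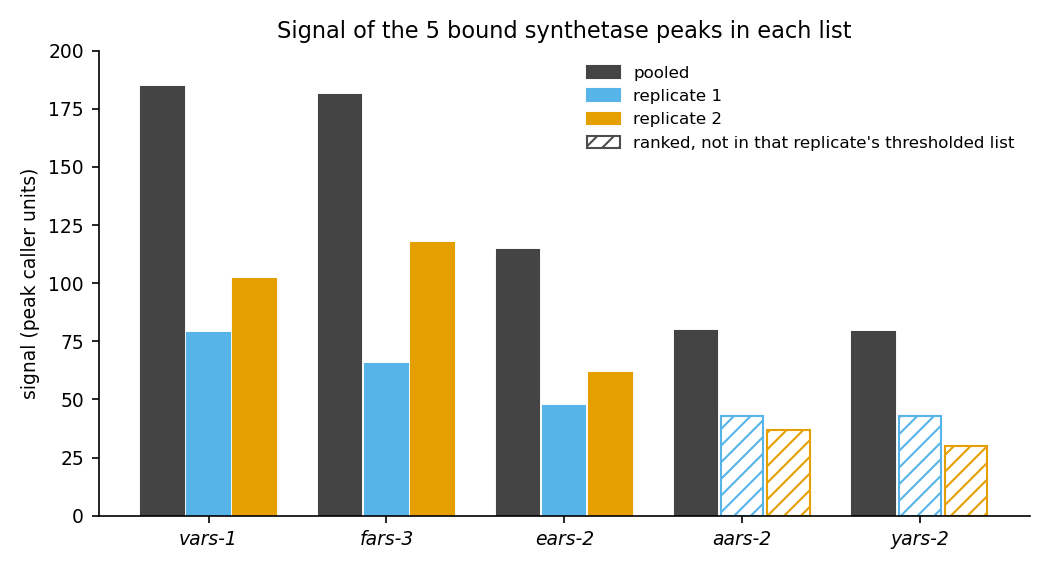
Signal (y axis, peak caller units) of the 5 bound synthetase peaks in the pooled list (grey) and at the matching ranked peak of replicate 1 (blue) and replicate 2 (orange). Hatched bars are ranked peaks that are not in that replicate's thresholded list, which holds for aars-2 and yars-2 in both replicates. Signal is not scaled between lists, so bars of the same colour are the ones to compare.

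Too few genes were bound to tell whether cytosolic and mitochondrial enzymes differ. Of the 21 genes for cytosolic or dual enzymes 3 were bound (14.3%, interval 4.98 to 34.6), and of the 11 mitochondrial ones 2 (18.2%, 5.14 to 47.7), so the intervals overlap over most of their length. None of the 4 dual genes was bound (interval 0 to 49.0). The median pooled signal of the bound genes was 180.8 for cytosolic and 96.7 for mitochondrial enzymes. With vars-1 counted as mitochondrial the counts would be 2 and 3, and the medians 130.2 and 114.5. By structural class, 3 of 15 class I and 2 of 17 class II genes were bound.

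The strongest peak of the pooled ranked list in each window gives a value for unbound genes too. This list holds peaks far below the threshold, and a window without a peak was counted as 0 in medians. The median over the 32 synthetase genes was 38.2, against 26.2 over all protein-coding genes, and 24 of the 32 were above the gene median. A ranked peak was missing from the windows of 3 synthetase genes (9.38%), against 28.8% of all genes. The other lists of translation genes were above the median of all genes as well, so this is not particular to the synthetases. Their medians were 45.7 for translation factors (4 of 42 without a peak), 40.3 for mitochondrial ribosomal proteins (9 of 70) and 68.5 for cytosolic ribosomal proteins (4 of 78). Over the 27 unbound synthetase genes the median was 35.4, against 23.9 over all unbound genes, with a median of 36.6 for the cytosolic and dual ones and 32.7 for the mitochondrial ones. A gene with several annotated starts is searched over more sequence. This holds for 19 of the 32 synthetase genes, while all 19973 protein-coding genes together had 29784 starts. The part of this in the medians and in the share without a peak was not tested. These are descriptions of 1 pooled list, with no test over genes.

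**Figure D3:**
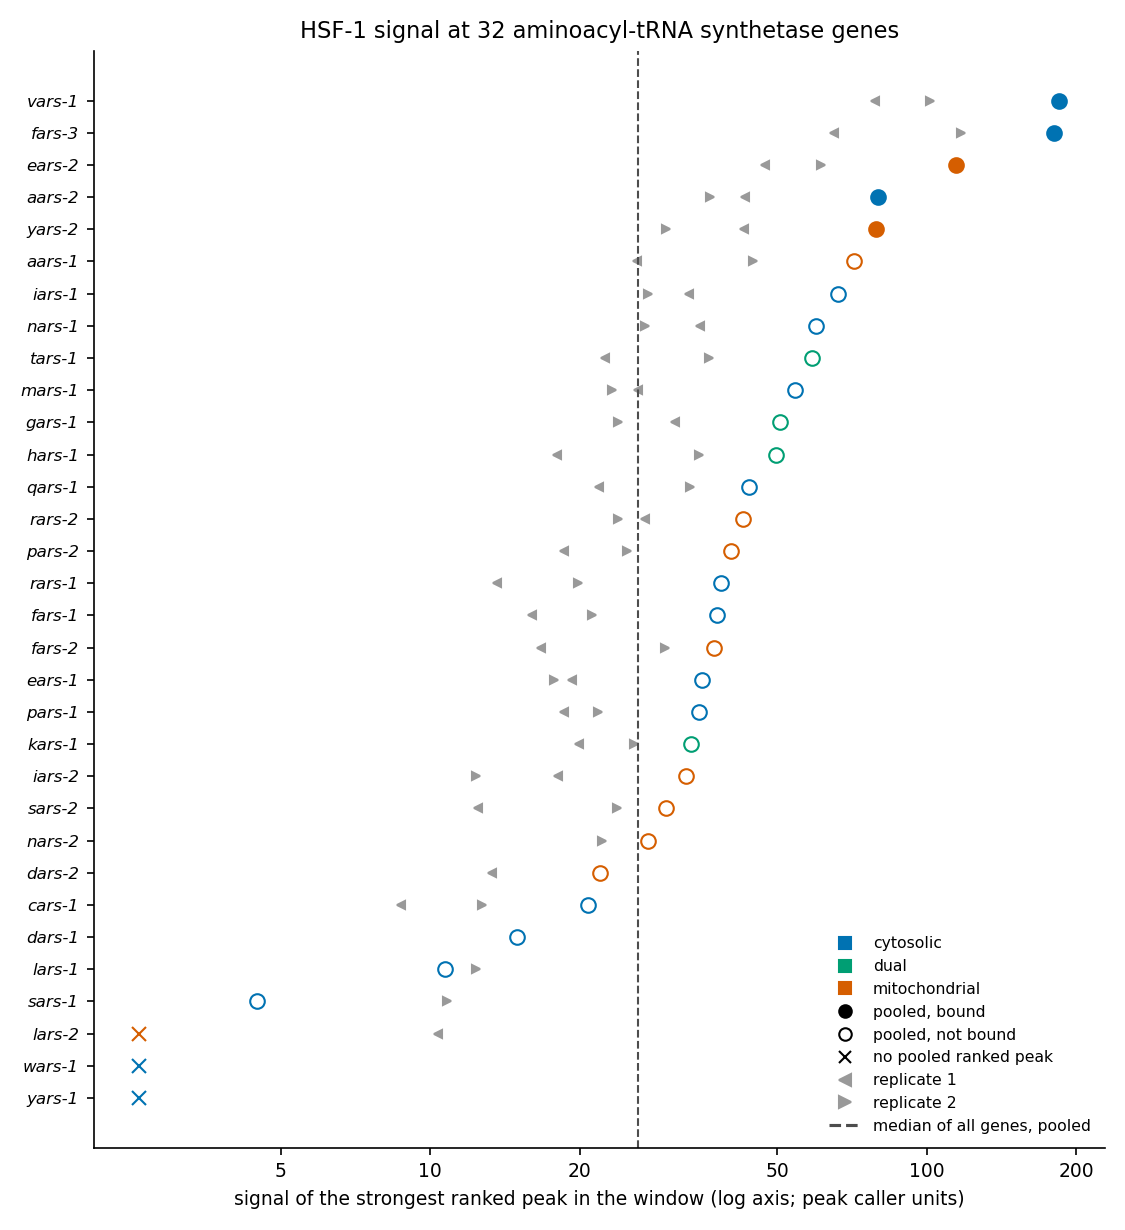
Signal (x axis, log scale, peak caller units) of the strongest ranked peak in the window of each of the 32 synthetase genes, in the pooled analysis (circles, coloured by compartment and filled where bound) and in each replicate (grey triangles, which need not be the same peak). The dashed line is the pooled median over all genes, 26.2, and 24 of the 32 circles lie to its right. Crosses mark the 3 genes without a pooled ranked peak.

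Directly below the bound genes stood aars-1, the mitochondrial alanyl-tRNA synthetase by its RefSeq product name. Its peak had a pooled signal of 71.2, with 26.1 in replicate 1 and 44.7 in replicate 2, and lay 24 bp upstream of the start. Its pooled IDR was 0.0247, above the threshold of 0.01. In replicate 2 its signal was above that of aars-2 and yars-2, which are called bound, and in replicate 1 it was below both, so the weakest bound and the strongest unbound genes overlapped between replicates.

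The next unbound genes were iars-1, the cytosolic isoleucyl enzyme, nars-1, the cytosolic asparaginyl enzyme, tars-1, the threonyl enzyme, and mars-1, the cytosolic methionyl enzyme. For iars-1 the pooled signal was 66.4, with 33.3 in replicate 1 and 27.5 in replicate 2, at a pooled IDR of 0.0986. For nars-1 it was 59.8, with 35.0 and 27.1 in replicates 1 and 2, at an IDR of 0.0752 and 904 bp upstream. That summit lay past the start of the divergent gene nduf-6, which is 678 bp from the start of nars-1. The pooled signal was 58.9 at tars-1 (IDR 0.462, 92 bp upstream), where an overlapping ranked peak of 36.5 was found in replicate 2 and none in replicate 1. It was 54.4 at mars-1 (IDR 0.48), with overlapping peaks of 22.3 in replicate 1 and 23.2 in replicate 2. The glycyl enzyme gene gars-1, named here after its value was seen, had an IDR of 0.0348 at a signal of 50.8. Its summit lay inside the gene, 236 bp upstream of the inner of 2 annotated starts, and not at the outermost start. With an IDR of 0.05 in place of 0.01, aars-1 and gars-1 would join the bound genes and make 7 (beside 12.2% of all genes).

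At the other end, the windows of lars-2, wars-1 and yars-1 held no pooled ranked peak. These genes encode the mitochondrial leucyl, the cytosolic tryptophanyl and the cytosolic tyrosyl enzyme. The window of lars-2 held a ranked peak of 10.4 in replicate 1 and none in replicate 2, while wars-1 and yars-1 had none in either. The outermost promoter windows of wars-1 and yars-1 were the most masked of all 32, at 82.1% and 85.0% of bases marked as repetitive in the reference, against a median of 28.1% over the synthetase genes with a ranked peak and 31.5% over all genes. Of the 64 protein-coding genes with at least 80% masked, 54.7% had no ranked peak, against 28.7% of the other genes. The lars-2 window was 39.9% masked. Whether reads could be placed in these windows was not tested.

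The lowest ranked values were 4.48 at sars-1, 10.7 at lars-1 and 14.9 at dars-1, the cytosolic seryl, leucyl and aspartyl enzymes. For all 3 the window decided the value. A ranked peak of 74.1 (IDR 0.0297) lay 267 bp downstream of the lars-1 start, and one of 59.6 (IDR 0.027) lay 263 bp downstream of the dars-1 start. At sars-1 one of 14.7 (IDR 0.778) lay 207 bp downstream. All are just past the 200 bp limit of the window. They were looked for after the low values were seen, and none passed the threshold.

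Cytosolic and mitochondrial enzymes of the same amino acid were compared in 12 gene pairs over 11 amino acids, with fars-2 set against both cytosolic phenylalanyl subunits. The cytosolic gene had the higher pooled value in 6 of the 12 pairs, and it was higher in 4 in replicate 1 and in 4 in replicate 2. In replicate 2 the aspartate pair had no ranked peak at either gene. The pairs nars-1 and nars-2, iars-1 and iars-2, and fars-3 and fars-2 had the cytosolic gene higher in the pooled list and in both replicates. For arginine, glutamate, proline, serine and tyrosine, the mitochondrial gene was higher in the pooled list and in both replicates. The proline pair was nearly equal in replicate 1, with 18.61 at pars-2 and 18.58 at pars-1. Alanine had both genes near the threshold, with 79.7 at aars-2 and 71.2 at aars-1, and the order turned in replicate 2 (36.7 at aars-2 and 44.7 at aars-1). Glutamate and tyrosine went the other way from phenylalanine, with 35.4 at ears-1 and 114.5 at ears-2, and with no ranked peak at yars-1 and 79.0 at yars-2. For phenylalanine, fars-3 had 180.8 and fars-1 37.9, against 37.4 at fars-2. In both replicates fars-1 was below fars-2, with 16.1 at fars-1 and 16.7 at fars-2 in replicate 1, and 21.2 at fars-1 and 29.8 at fars-2 in replicate 2. The aspartate pair, with 14.9 at dars-1 and 22.0 at dars-2, turns when the window runs to 500 bp downstream, where dars-1 has 59.6. In none of the pairs were both genes bound.

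**Figure D4:**
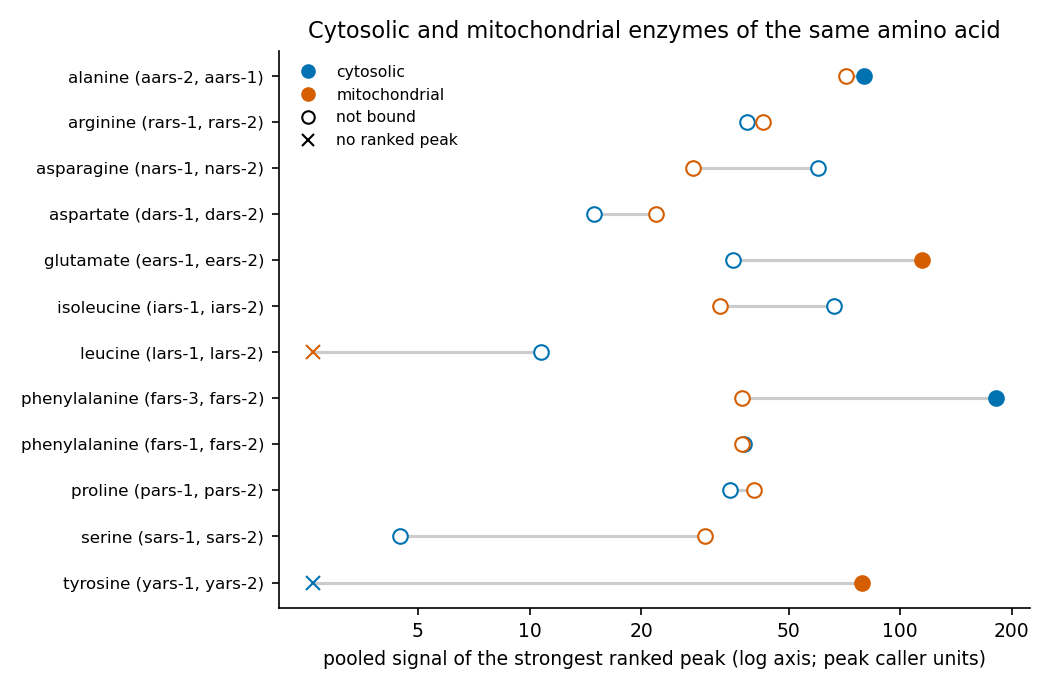
Pooled signal (x axis, log scale, peak caller units) of the strongest ranked peak at the cytosolic (blue) and mitochondrial (orange) gene for the same amino acid, joined by a line. Filled circles are bound genes and crosses are genes without a ranked peak. The blue symbol lies to the right in 6 of the 12 pairs.

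Bound summits lay close to the starts. Of the 5, 4 lay within 300 bp upstream of the nearest start and 1 downstream of it, whereas of the 24 unbound genes with a ranked peak 9 had theirs within 300 bp upstream, 10 farther upstream and 5 downstream. Among all 1524 bound genes, 43.2% had the strongest summit within 300 bp upstream and 42.2% farther upstream. The number of synthetase genes is too small to set these shares apart.

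**Figure D5:**
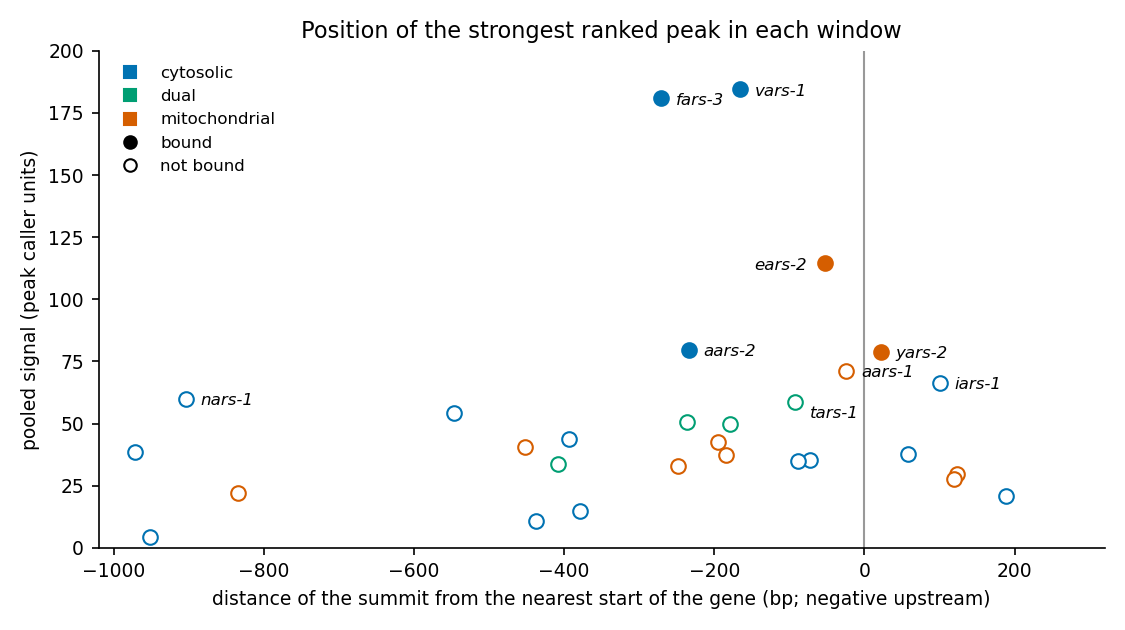
Pooled signal (y axis, peak caller units) against the distance of the summit from the nearest annotated start (x axis, bp, negative upstream) for the strongest ranked peak of each of the 29 synthetase genes that had one. Filled circles are bound genes. The 5 bound summits lie between 271 bp upstream and 22 bp downstream, and unbound ones are spread over the whole window.

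The compact genome of the worm places many synthetase genes near another gene. Of the 32, 11 had a divergent gene whose start lay within 1000 bp and 11 others followed a gene on the same strand that ended within 500 bp. Each layout thus held 34.4% of the synthetase genes, against 17.7% and 17.9% of all protein-coding genes. Of the divergent ones 1 was bound (ears-2), of those behind a same-strand gene 3 (vars-1, fars-3 and yars-2) and of the remaining 10 only aars-2. Over all genes the shares bound in these layouts were 13.9%, 11.4% and 4.84%. Most of all genes, 64.4%, had neither layout, and the part of layout in the share of bound synthetases was not tested. The yars-1 gene, without any ranked peak, starts 110 bp past the end of Y105E8A.20, a mitochondrial methionyl enzyme gene by its RefSeq product name.

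No perfect heat shock element of 3 units was found within 100 bp of any of the 5 bound summits. Such an element, GAA or TTC units in alternation on either strand, lay at 16.6% of all pooled summits and in 1.34% of promoter stretches of the same length centred 150 bp upstream of all genes. With 1 mismatch allowed in the 9 fixed bases, only fars-3 had one (29.4% of pooled summits, 14.9% of promoter stretches). That site is chrII:8464639-8464651, printed above in capitals, 68 bp from the summit and 203 bp upstream of the start. The 2-unit form TTCNNGAA, which an element of 3 units can contain, was present at vars-1 and fars-3 (27.6% of pooled summits, 12.3% of promoter stretches). The other form, GAANNTTC, was present at none of the 5 (26.3% and 12.7%). The E2F type patterns TTTCCCGC, TTTGGCGC, TTTGCCGC and TTTCGCGC, searched on both strands, were found at aars-2 alone (9.03% and 3.58%). The ATF4 type pattern TGATGNAA was found at none (3.65% and 4.98%). At these frequencies, a match or its lack at 5 peaks is a description only. Within 100 bp of the summit the base composition ranged widely, with 28.4% G and C at fars-3, 29.4% at vars-1, 39.8% at yars-2, 42.3% at aars-2 and 47.3% at ears-2, around a median of 40.8% over pooled peaks.

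Perfect elements did occur in the promoter windows of 4 unbound synthetase genes, all of them cytosolic: mars-1, qars-1, fars-1 and wars-1 (12.5% of 32, beside 7.68% of all genes). They are shown, on the strand of the gene with the fixed bases in capitals, because HSF-1 was not called at any of them (the fars-1 sequence is not shown).
mars-1, chrIV:11636339-11636351, minus strand: TTCaaGAAttTTC
qars-1, chrIV:15013241-15013253, minus strand: TTCtaGAAttTTC
wars-1, chrV:18859640-18859652, minus strand: TTCcaGAAatTTC
The qars-1 element was the one nearest to a start, 64 bp upstream, and a ranked peak of signal 20.6 (IDR 0.565) had its summit 7 bp away. The elements of mars-1, 858 bp upstream, and fars-1, 801 bp upstream, lay 187 bp and 112 bp from the nearest ranked summits, of signal 38.4 and 19.3. The wars-1 element, 425 bp upstream, lay 3448 bp from the nearest ranked summit. In all 4 cases each of the 13 bases was masked as repetitive in the reference. Among all genes with a perfect element in the window, 13.7% of 1534 were bound, against 7.13% of the 18439 without one. Where every element was masked the share was 12.2% of 823 genes, against 15.5% of 711 with unmasked bases, so most genes with an element were unbound in either case.

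The ATF4 type pattern TGATGNAA occurred in the windows of 8 of the 21 cytosolic or dual genes (iars-1, gars-1, hars-1, fars-1, kars-1, cars-1, lars-1 and yars-1) and of none of the 11 mitochondrial ones, beside 28.1% of all genes. None of the 8 was bound, beside 7.63% of all genes, and at 8 genes this is a description only. Both iars-1 and lars-1 held it at 2 places close to the start, 105 and 70 bp upstream of iars-1 and 76 and 56 bp upstream of lars-1. The nearest ranked summits lay 176 bp or more from these places. In the same windows, the E2F type patterns occurred in aars-2, iars-2 and cars-1, beside 16.5% of all genes.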

How the data were processed

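Peak lists of HSF-1 ChIP-seq from 2 replicates were used: 4 thresholded and 4 ranked lists on ce11, 1 pair for each replicate and 2 pairs made from both. The peak signal was deposited by the authors as the value of the peak caller, and the ranked lists hold the −log10 of the IDR as deposited. The sources used here do not give the aligner, the caller or the read numbers, so depth is unknown. The 16 columns of the ranked tables that hold single peak sets without a named sample were not used. Replicate values at a named pooled peak came from each replicate's ranked list, as the overlapping ranked peak (1 bp or more) whose summit was closest. In the pairs by amino acid, the medians and the plot of all 32 genes, they are the strongest ranked peak in the window.

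Genes and starts came from Ensembl release 115, with every annotated transcript start of a gene counted, and sequence, masking and product names from RefSeq on the same assembly. The 4 dual genes were set by gene name, also tars-1, although a RefSeq product name of tars-1 says cytoplasmic. For the other genes the compartment followed the product name where it names one and otherwise the gene name. The text names every bound gene, the 5 strongest unbound ones, those without a ranked peak and genes that share a bound summit. Genes named for an element, a neighbour or a low value are additions. The members, lists and patterns were chosen with earlier results of these data known. Shares carry Wilson intervals, which cover counting error only. Promoter windows for patterns started from the outermost start. Window assignment and pattern search were tested on simulated data. Alternatives covered the lists, the IDR, the window, the starts, the nearest gene and mismatches. Python 3.11.15, pandas 2.3.3, numpy 2.4.6, scipy 1.17.1 and matplotlib 3.10.9 were used.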

Additional observations from a re-analysis of the deposited data

How the results depend on the processing

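The count of 5 bound synthetase genes was between 4 and 7 with the conservative list, an IDR of 0.05, other windows, the outermost start, the nearest gene alone or any overlap. Over these settings the share of all genes bound changed as well. It was 5.58% with a window of 500 bp upstream to 100 bp downstream (count 5), 5.92% with the nearest gene alone (count 4) and 12.2% with the IDR of 0.05 (count 7). The count was 3 in the part of the pooled list at or above its median signal (beside 4.75% of all genes) and in each replicate list alone (3 to 3). The cytosolic and dual count stayed between 2 and 4. The mitochondrial count of 2 was 1 in the conservative list, in the stronger part of the pooled list, with only the nearest gene counted and in each replicate list (1 to 1), which leave out yars-2 or ears-2. With a window of 2000 bp upstream, dars-1 joined the bound genes and made 6, while the share of all genes went up to 10.4%. The synthetase genes with other names, added as an alternative after seeing the data, made 6 as well. The median signal of the bound genes, 114.5, was 147.6 in the conservative list, over 4 genes, and 65.2 to 101.7 in the replicate lists, over 3 genes and on other scales. With vars-1 counted as mitochondrial, the median signal of the bound cytosolic genes was 130.2 in place of 180.8. The cytosolic gene was higher in 6 of the 12 pairs, in 4 in each replicate and in 7 with 500 bp downstream (both added after seeing the data). Elements at the bound summits went to 1 with a mismatch allowed and were 0 within 50 bp and 200 bp. The median best ranked signal of unbound genes, 35.4, was 46.1 with a window of 2000 bp upstream, 38.5 with 500 bp downstream (chosen after the data were seen) and 18.0 to 22.2 in the replicates. No paired analysis was possible because there is 1 group. With unknown depth and 2 replicates, calls near the threshold, aars-2, yars-2 and aars-1, are the least certain.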

Other observations

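Protein-coding genes that RefSeq names as synthetases but that fall outside the naming rule were looked up in the same way. K03B4.1, a seryl-tRNA synthetase by its RefSeq product name, was bound, with a pooled signal of 92.1 at 636 bp upstream and matching ranked peaks of 36.6 in replicate 1 and 40.0 in replicate 2, in neither replicate list. The others were unbound. The strongest ranked peak had a pooled signal of 13.5 at glp-4, which encodes a valyl enzyme, 42.8 at the locus annotated as prx-10, where RefSeq also gives a mitochondrial tryptophanyl enzyme, and 27.6 at Y105E8A.20, the mitochondrial methionyl enzyme. The values of glp-4 (13.5) and vars-1 (184.5), both valyl enzyme genes, were thus far apart.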
